A study of Macaca fascicularis with 2 samples.

Results

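The neuromuscular junction genes described here are the 5 subunits of the muscle acetylcholine receptor (CHRNA1, CHRNB1, CHRND, CHRNE and CHRNG) and 5 genes that build or hold the postsynaptic site (MUSK, LRP4, DOK7, RAPSN and COLQ). They were chosen by name and make up 10 of the 28175 genes in the files. All 10 were found under their own symbols. RNA of gastrocnemius muscle, a calf muscle, from the cynomolgus macaque, Macaca fascicularis, was sequenced in 1 library labelled non-lean, of the high fat diet, and 1 labelled lean, of the chow diet. The study compares gene expression of obese and lean skeletal muscle. The labels used here give neither the age of the animals nor how many animals each library holds, and name no allele or agent beside the diets.

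The non-lean library held 12732004 counts and the lean library 15983371. Values are scaled CPM, which are counts normalised for library size after scaling by the trimmed mean of M-values, and 1 count is worth 0.0748 CPM in the non-lean and 0.0657 CPM in the lean library. Tested genes are the 13707 with a mean of at least 1 CPM, and all 10 junction genes are among them. Each log2 ratio sets non-lean over lean, and square brackets give its 95% Clopper-Pearson interval, which covers counting error only. A gene is called higher or lower when it is at least 2-fold apart and its interval excludes 0. With 1 library per group there is no replicate error, so the groups were not tested against each other, and every difference is one between single libraries in which animal, sampling, preparation and diet cannot be told apart. Transcript lengths are not used here, so levels are compared between libraries and not between genes. Muscle fibre markers were abundant in both libraries, with ACTA1, skeletal actin, at 60124 CPM in the non-lean and 80376 CPM in the lean library.

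The neuromuscular junction is the synapse through which a motor neuron drives a muscle fibre. Acetylcholine released by the nerve opens the receptor, a pentamer of alpha, beta and delta subunits with an epsilon subunit in adult muscle or a gamma subunit in fetal and denervated muscle. Agrin from the nerve binds LRP4, which activates the kinase MUSK together with the adaptor DOK7, and the scaffold RAPSN then clusters the receptors. Nuclei beneath the synapse express these genes most strongly, and loss of nerve activity is known, mostly from rodents, to spread the expression of several of them along the fibre.

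CHRNA1, the alpha subunit that carries the acetylcholine binding sites, stood 5.09-fold higher in the non-lean library, the only 1 of the 10 genes past the 2-fold call. CHRNG and DOK7 were higher by less than 2-fold with intervals above 0. LRP4 and RAPSN were lower by less than 2-fold with intervals below 0. The intervals of CHRNB1, CHRND, CHRNE, MUSK and COLQ held 0. Among all tested genes, 4.91% were called higher and 7.16% lower, and 25.7% had intervals above 0, 28.8% below 0 and 45.5% intervals that held 0. The 3 intervals above 0, 2 below 0 and 5 that held 0 among the 10 junction genes are close to those shares, so the counts alone do not set these genes apart. The median log2 ratio of the 10 genes was 0.39, beside -0.01 for all tested genes.

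**Figure D1:**
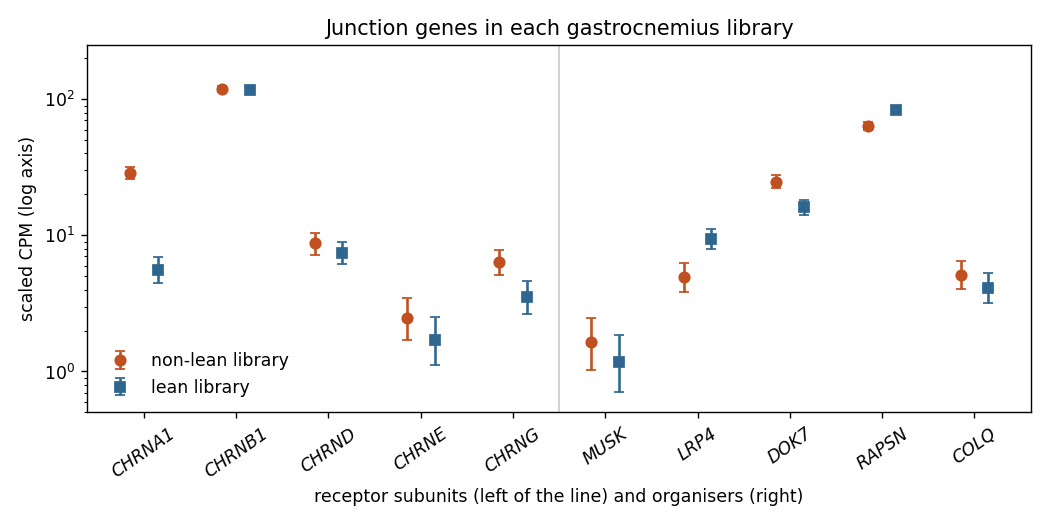
Scaled CPM of each junction gene on a log axis, in the non-lean library (circles) and the lean library (squares), with exact 95% Poisson counting intervals. CHRNA1 lies at 28.6 CPM in the non-lean and 5.59 CPM in the lean library, while CHRNB1 lies at 119 and 117 CPM.

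CHRNA1 had 382 counts in the non-lean library, against 85 counts in the lean library. These are 28.6 CPM and 5.59 CPM, with Poisson intervals of 25.8 to 31.6 CPM and 4.46 to 6.91 CPM that do not overlap. The log2 ratio of CHRNA1 was 2.35 [2.01, 2.71], which was rank 71 from the highest among the tested genes, so that 0.511% of them had a higher ratio. The files hold a single transcript model of CHRNA1, and all its counts lie there.

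CHRNB1, the beta subunit, had 1598 counts in the non-lean and 1774 counts in the lean library, or 119 CPM and 117 CPM. Its log2 ratio of 0.04 [-0.06, 0.13] held 0 and left room for at most 1.10-fold in the non-lean library's favour. Scaled by total counts instead, the ratio was 0.18 [0.08, 0.28], above 0, but that scaling also lifts the median of all tested genes by 0.14 on the log2 scale.

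CHRND, the delta subunit, had 117 counts in the non-lean and 113 counts in the lean library, or 8.75 CPM and 7.43 CPM. The log2 ratio was 0.24 [-0.15, 0.62], so a difference was not detectable at this depth.

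CHRNG, the gamma subunit of the fetal receptor, had 85 counts in the non-lean and 54 counts in the lean library. At 6.36 CPM and 3.55 CPM it stood 1.79-fold higher in the non-lean library, with a log2 ratio of 0.84 [0.33, 1.36]. CHRNE, the epsilon subunit of the adult receptor, had 33 counts in the non-lean and 26 counts in the lean library. These are 2.47 CPM and 1.71 CPM, and the ratio of 0.52 [-0.26, 1.33] held 0. The 2 subunits that replace each other in the receptor were thus both at higher point values in the non-lean library, with an interval above 0 for CHRNG and one that held 0 for CHRNE.

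CHRNE overlaps another gene, C16H17orf107, in the RefSeq gene order of assembly T2T-MFA8v1.1, and the protocol names no step that marks strand. The estimated counts of CHRNE were 32.56 in the non-lean and 25.64 in the lean library, and those of C16H17orf107, named here after its values were seen, were 30.44 and 14.41. Their sums were 63 and 40.05, and the log2 ratio of the sums was 0.84 [0.25, 1.45], with an interval above 0 where that of CHRNE held 0. The division of reads between these genes was made by the authors' estimation, so the value of CHRNE is uncertain. The sums of 8 of the 10 junction genes were whole within 0.02 in both libraries, and the exceptions were CHRNE and RAPSN. COLQ overlaps HACL1 and MUSK overlaps a pseudogene in the same gene order, but the sums of COLQ, MUSK and HACL1 were whole, so no split of reads like that of CHRNE was seen for them.

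**Figure D2:**
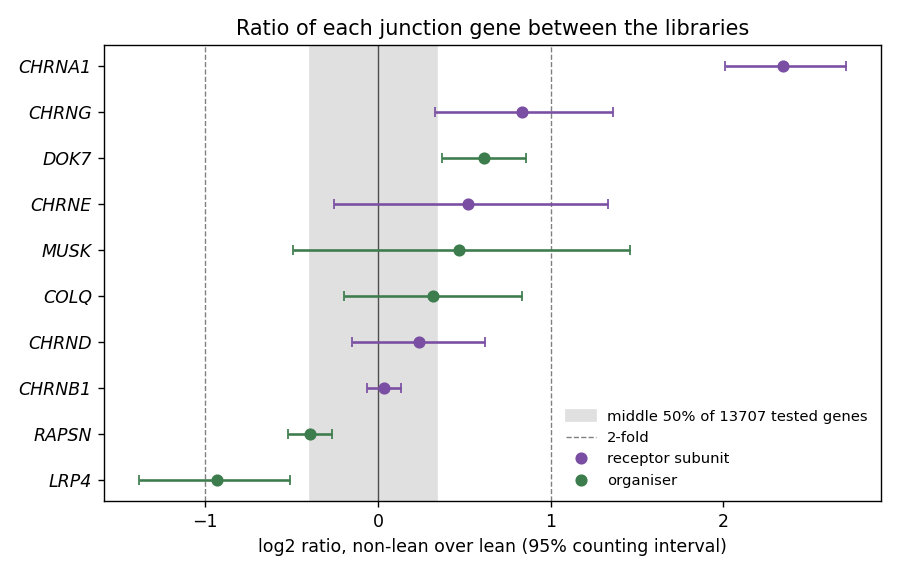
Log2 ratio, non-lean over lean, of each junction gene, with 95% Clopper-Pearson counting intervals. The grey band spans the quartiles of all tested genes, -0.39 and 0.34, and dashed lines mark 2-fold. CHRNA1 at 2.35 lies alone beyond the right dashed line, and LRP4 at -0.93 is the lowest.

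Shares within the receptor counts do not depend on the scaling between libraries. CHRNA1 took 17.2% of the counts of the 5 subunits in the non-lean library (95% Clopper-Pearson interval 15.7 to 18.9), against 4.14% in the lean library (3.32 to 5.10). CHRNB1 took 72.1% in the non-lean library (70.2 to 74.0), against 86.5% in the lean library (84.9 to 87.9). These shares are of counts and not of molecules, since counts were not divided by transcript length.

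Among the other 4 subunits, with CHRNA1 left out, CHRNG took 4.64% in the non-lean library (3.72 to 5.70) and 2.75% in the lean library (2.07 to 3.57). CHRNE took 1.80% (1.24 to 2.52) and 1.32% (0.865 to 1.93) in the same order of libraries, and CHRND 6.38% (5.31 to 7.60) and 5.74% (4.76 to 6.87). The intervals of CHRNG do not overlap between the libraries, and those of CHRNE and CHRND do. Counted on the leading transcript model of each gene alone, the shares of CHRNG were 7.33% in the non-lean and 6.70% in the lean library. CHRNG has a single model, so its own counts stay the same. Its shares move because counts of CHRNB1 and CHRND on other models drop out. Within the counts of CHRNE and CHRNG together, CHRNG made up 72.0% in the non-lean library (63.0 to 79.9) and 67.5% in the lean library (56.1 to 77.6). That balance of fetal and adult subunits did not differ beyond counting error. Its intervals do not cover the uncertain division of reads between CHRNE and C16H17orf107.

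Summed over the 5 subunits, the receptor had 2215 counts in the non-lean and 2052 counts in the lean library, a log2 ratio of 0.30 [0.21, 0.38]. Without CHRNA1 the sums were 1833 and 1967 counts, and the ratio was 0.08 [-0.01, 0.18]. The interval of the sum therefore lay above 0 with CHRNA1 and held 0 without it. Of the counts without CHRNA1, CHRNB1 held 87.2% in the non-lean and 90.2% in the lean library. The median of the log2 ratios of those 4 subunits was 0.38.

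**Figure D3:**
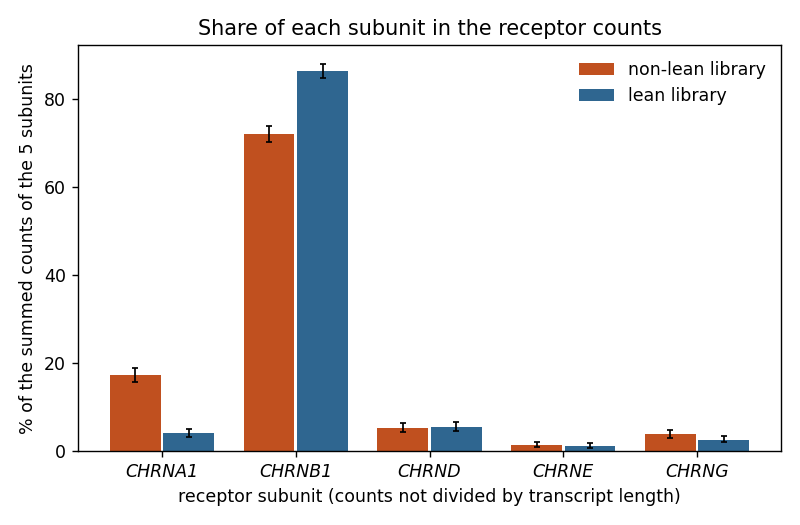
Share of each subunit in the summed counts of the 5 receptor subunits, in percent, for the non-lean library (left bars) and the lean library (right bars), with 95% Clopper-Pearson intervals. CHRNA1 makes up 17.2% in the non-lean and 4.14% in the lean library, and the share of CHRNB1 is 72.1% and 86.5%.

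The organisers went both ways. DOK7, the adaptor that activates MUSK from inside the fibre, had 331 counts in the non-lean and 246 counts in the lean library, or 24.8 CPM and 16.2 CPM. DOK7 was thus 1.53-fold higher, with a log2 ratio of 0.61 [0.37, 0.86].

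LRP4, the receptor for agrin, had 66 counts in the non-lean and 144 counts in the lean library. At 4.94 CPM and 9.46 CPM it stood 1.91-fold lower in the non-lean library, with a log2 ratio of -0.93 [-1.38, -0.51]. Among tested genes, 8.19% had a lower ratio. LRP4 thus stood just short of the 2-fold line.

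RAPSN, the scaffold that binds the receptor from the cytoplasm, had 850 counts in the non-lean and 1271 counts in the lean library, or 63.6 CPM and 83.5 CPM. It was 1.31-fold lower, a log2 ratio of -0.39 [-0.52, -0.27], and its ratio lay at the lower quartile of all tested genes. RAPSN and its partner CHRNB1 can be set against each other within a library. RAPSN made up 34.7% of their summed counts in the non-lean library (32.8 to 36.6) and 41.7% in the lean library (40.0 to 43.5), so the share was lower in the non-lean library whatever the scaling.

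MUSK, the receptor tyrosine kinase of the agrin pathway, had 22 counts in the non-lean and 18 counts in the lean library, or 1.65 CPM and 1.18 CPM. Its interval, 0.47 [-0.49, 1.46], is the widest of the 10 genes, and neither a rise nor a fall could be detected at this depth. COLQ, the collagen tail that anchors acetylcholinesterase in the synaptic cleft, had 69 counts in the non-lean and 63 counts in the lean library, or 5.16 CPM and 4.14 CPM, and its ratio of 0.32 [-0.20, 0.83] held 0. Over the 5 organisers the sums were 1338 counts in the non-lean and 1742 counts in the lean library, a log2 ratio of -0.19 [-0.30, -0.09], of which RAPSN held 850 and 1271 counts. The median of the 5 ratios, 0.32, has the opposite sign.

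Several junction genes have more than 1 transcript model, and the estimated counts were divided differently in the libraries. All 22 counts of MUSK in the non-lean library fell on a model with 0 in the lean library, and 16.42 of the 18 lean counts fell on a model with 0 in the non-lean library. For LRP4 the model with the largest sum had 14.01 estimated counts in the non-lean and 92.01 in the lean library, while the other had 51.99 in both. In these estimates the difference in LRP4 lay in 1 of its 2 models, but the error of that division is not known.

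For CHRND the leading models held 78.76 and 38.24 estimated counts in the non-lean library, against 39.38 and 73.62 in the lean library, although the gene sums were nearly equal. For CHRNB1 they held 962.63 and 635.37 in the non-lean library, against 687.31 and 965.17 in the lean library, where another model held 121.52. The order of the leading models was thus swapped between the libraries for both genes. The leading model kept most of the counts in both libraries for RAPSN, with 80.0% in the non-lean and 76.0% in the lean library, and for DOK7, with 94.1% and 85.4%. Of the 11 models of COLQ, 5 had any count. The files give no error for this division, and gene sums are the values compared above. With the leading model of each gene alone, CHRND would be called higher at 1.20 and LRP4 lower at -2.49.

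**Figure D4:**
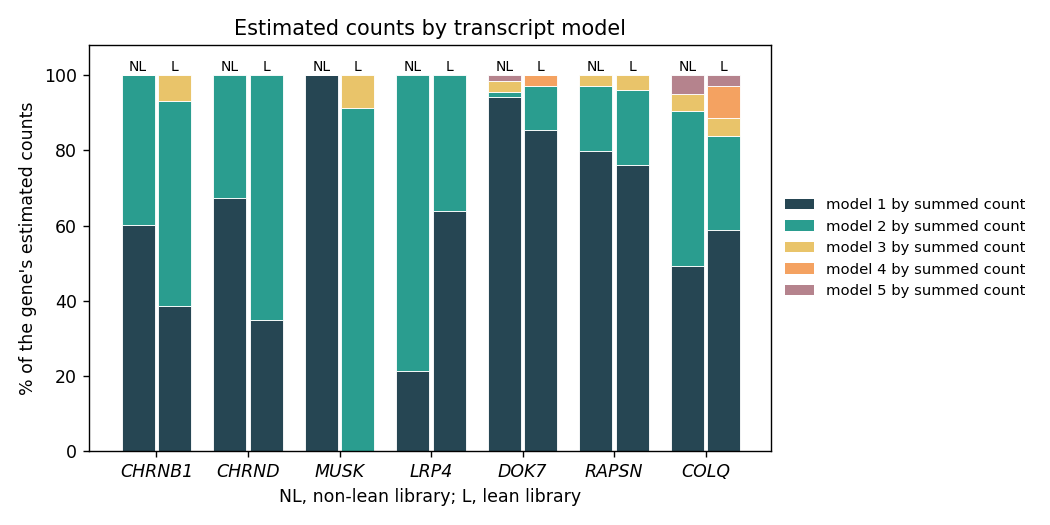
Percent of each gene's estimated counts on each transcript model, ordered by summed count, in the non-lean library (NL, left bars) and the lean library (L, right bars), for the 7 junction genes with counts on more than 1 model. MUSK has no model with counts in both libraries, and the larger part of LRP4, CHRND and CHRNB1 lies on different models in the libraries.

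Genes that work with these 10 at the junction had more intervals below 0 than above. Of the 34 tested junction partners, which are signalling, cytoskeletal and transcription genes of the synapse, 2 had intervals above 0, 23 below 0 and 9 held 0. In percent of all tested genes, intervals lay above 0 for 25.7% and below 0 for 28.8%. The median log2 ratio of the partners was -0.33, beside -0.01 for all tested genes. The 2 with intervals above 0 were ACHE and, named after its values were seen, NES, an intermediate filament gene at 0.40 [0.22, 0.58].

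ACHE, the acetylcholinesterase that COLQ anchors, had 1186 counts in the non-lean and 948 counts in the lean library, a log2 ratio of 0.51 [0.39, 0.63]. ETV4, a transcription factor, had 25 and 17 counts in the same order and a ratio of 0.73 [-0.20, 1.72] that held 0. SORBS2, an adaptor of the actin cytoskeleton, was lowest at -1.73 [-1.88, -1.58], with 453 counts in the non-lean and 1711 in the lean library. ERBB2, a receptor of the neuregulin pathway, was lower at -1.05 [-1.32, -0.79], with 168 and 397 counts.

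Agrin itself, AGRN, had 202 counts in the non-lean and 272 counts in the lean library, a ratio of -0.24 [-0.51, 0.03] that held 0. Utrophin, UTRN, which lies beneath the receptors, was at 0.02 [-0.18, 0.22]. ERBB3 had 10 and 12 counts and was below the level for testing.

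Of the 16 tested genes of the synaptic basal lamina, COLQ among them, 3 had intervals above 0 and 9 below 0. Over all tested genes these shares were 25.7% and 28.8%. The median of the list was -0.25. COL4A3, a chain of collagen IV, had 2633 counts in the non-lean and 607 counts in the lean library, 4.93-fold higher at 2.30 [2.18, 2.43]. COL4A5, which assembles with it, was at 0.87 [0.31, 1.45], with 71 and 44 counts. The remaining interval above 0 was that of COL4A4, their other partner chain, at 0.82 [0.59, 1.07], named after its values were seen. NID1, or nidogen, was lowest at -1.50 [-1.73, -1.29], and LAMA4, a laminin alpha chain, was at -0.95 [-1.26, -0.65].

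Genes of receptor assembly and glycosylation, several of which cause congenital myasthenic syndromes in humans, had a median of 0.24. Of 15 tested, 7 had intervals above 0 and 3 below 0, beside 25.7% and 28.8% of all tested genes. None passed the 2-fold call, which 12.1% of all tested genes passed in either direction. ALG2, a mannosyltransferase, was highest at 0.62 [0.26, 0.98] and GMPPB, which makes GDP-mannose, was at 0.57 [0.27, 0.88]. GFPT2 at -0.85 [-1.16, -0.55] and GFPT1 at -0.70 [-1.18, -0.24], which start hexosamine synthesis, were lowest.

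Other genes known, mostly from rodents, to respond to denervation had more intervals below 0 than above. Of the 22 tested genes of that list, 4 are junction genes described above. Among the other 18, 3 had intervals above 0 and 12 below 0, beside 25.7% and 28.8% of all tested genes, and their median was -0.41. The list was not sorted by the direction in which each gene responds to denervation. These counts and the median therefore do not show movement with or against that response. The 3 above 0, named after their values were seen, were CSRP3, a Z-disc protein, at 0.66 [0.59, 0.72], TRIM63, a muscle ubiquitin ligase, at 0.37 [0.28, 0.46], and HDAC5, a histone deacetylase, at 0.16 [0.06, 0.26]. MYOG, myogenin, which activates receptor subunit genes, had 702 counts in the non-lean and 739 counts in the lean library, a ratio of 0.11 [-0.04, 0.26] that held 0. NCAM1, a cell adhesion gene, had 204 and 524 counts and was lower at -1.17 [-1.42, -0.94].

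MYH8, the perinatal myosin, was lowest at -2.95 [-3.11, -2.80], with 373 counts in the non-lean and 3282 in the lean library, although reads of closely similar myosins are divided among them by the authors' estimation. HDAC9, a repressor of receptor genes in mouse muscle, was at -1.37 [-1.73, -1.02]. RUNX1, CDKN1A and ANKRD1, named after their values were seen, complete the 6 genes of this list called lower, at -1.10, -1.22 and -1.13. Over all tested genes 7.16% were called lower and 4.91% higher. CHRNA1 was the only gene of the list called higher.

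**Figure D5:**
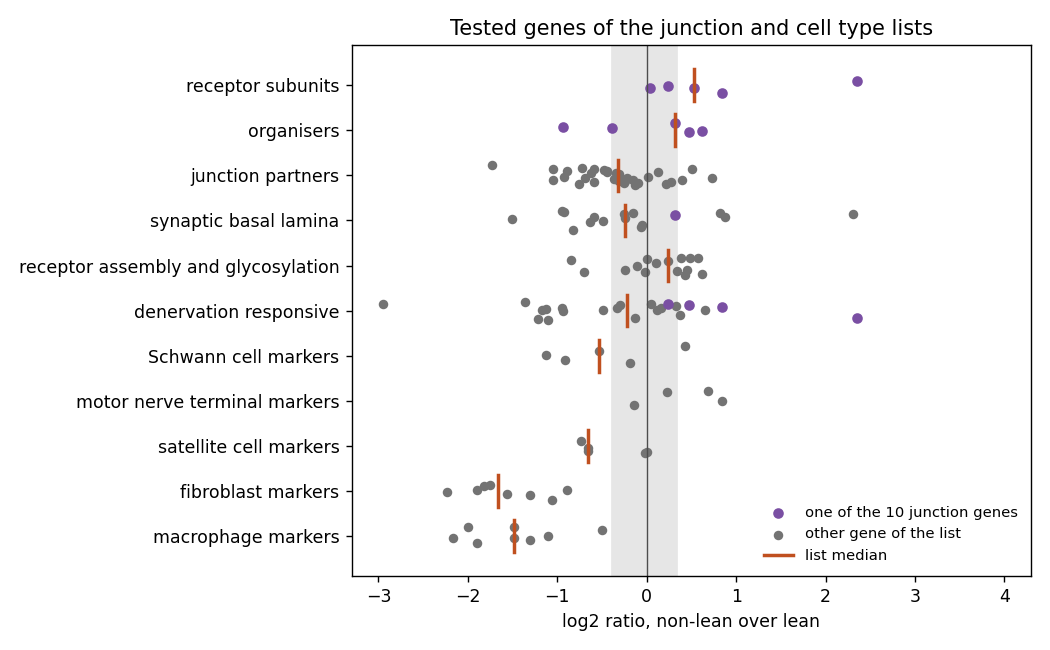
Log2 ratio of every tested gene in the junction lists and in 5 marker lists of other cells, 1 row per list, with list medians as vertical bars where at least 5 genes were tested and the quartiles of all tested genes as the grey band. The 10 junction genes lie at the top, with CHRNA1 at 2.35, and of the lists drawn the fibroblast and macrophage markers have the lowest medians, -1.66 and -1.49. Adipocyte, endothelial and fibre type markers are not drawn.

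Markers of other cells moved beside these values, and their part in the values was not tested. Schwann cell markers, 5 of 10 tested, summed to 54.8 CPM in the non-lean and 104 CPM in the lean library. MBP, a myelin gene, was at -1.12 and PMP22, another, at -0.92, which were both the lowest and the most abundant of them, while NGFR was at -0.18 [-1.11, 0.71] and PRX at 0.42 [-0.45, 1.32]. Satellite cell markers, 5 of 7 tested, summed to 49.8 CPM in the non-lean and 77.9 CPM in the lean library. Of these sums CDH15 alone held 41.7 CPM in the non-lean and 65.5 CPM in the lean library. In that list CDH15 was at -0.65, HEYL at -0.73 and VCAM1 at -0.66 [-1.84, 0.39], while MYF5 was at -0.02 and CHODL at 0.00, both with intervals that held 0.

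For comparison with the next lists, 28.8% of all tested genes had intervals below 0 and 25.7% above 0. Fibroblast markers summed to 447 CPM in the non-lean and 1057 CPM in the lean library. All 8 had intervals below 0, from FBN1 at -2.24 and COL1A1 at -1.90 to COL1A2 at -1.05 and DCN at -0.89. Macrophage markers summed to 32.5 CPM in the non-lean and 99.3 CPM in the lean library, and 7 of 8 intervals lay below 0. CD14 at -2.17 and C1QC, with 44 counts in the non-lean and 202 in the lean library, were lowest there, CD163 at -1.10 and MRC1 at -0.50 highest, and C1QB and CSF1R were the most abundant. Endothelial markers summed to 175 and 238 CPM, with all 5 intervals below 0, from CDH5 at -0.88 and TEK at -0.70 to PECAM1 at -0.46 and VWF at -0.20. The endothelial median relative to tested genes was -0.64, but 0.092 with the leading transcript model of each gene alone, so its direction turns with that choice. Adipocyte markers, 4 of 5 tested, summed to 32.1 CPM in the non-lean and 45.3 CPM in the lean library. Of these sums FABP4 alone held 29.0 CPM in the non-lean and 24.2 CPM in the lean library. By ratio, ADIPOQ was at -3.55, CIDEC at -2.65, PLIN1 at -2.64 and FABP4 at 0.26.

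Fibre type genes moved too. Over all tested genes, intervals lay above 0 for 25.7% and below 0 for 28.8%. Most fibre genes have high counts, so their intervals are narrow and exclude 0 at small ratios, as for DES at -0.09 [-0.10, -0.08]. Scaling by total counts shifts the median of tested genes by 0.14, more than that ratio, so these interval counts depend on the scaling. Slow fibre markers had 8 of 9 intervals above 0 and a median of 0.89, with TNNT1 at 1.11 and MYL3 at 1.01 highest, TNNC1 at 0.89 and MYL2 at 0.32 most abundant, and CASQ2 lowest at -3.32. Fast fibre markers had 9 of 11 intervals below 0 and a median of -0.34. They ran from MYH4 at -1.34 and PVALB at -1.13 to TNNC2 at 0.12 and MYLPF at 0.13. MYH1 at -0.93 and TNNT3 at -0.18 were most abundant. As for MYH8, the values of MYH1 and MYH4 rest on the authors' division of reads among closely similar myosins. Muscle fibre markers as a whole had 7 of 8 intervals below 0 and a median of -0.32, with MYBPC2 at -1.02 and NEB at -0.74 lowest, DES at -0.09 and MB at 0.80 highest, and ACTA1 at -0.42 and CKM at -0.57 most abundant. In such whole-tissue libraries, fewer cells or junctional nuclei and less RNA per cell cannot be told apart.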

How the data were processed

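Total RNA was extracted with Trizol, and polyadenylated RNA was copied from random hexamers and read on a BGISEQ-500, per the labels' protocols. The deposited values are expected counts, estimated per RefSeq transcript and often not whole, per the file headers. Per the submitters' processing notes, the tools included RSEM 1.3.3, STAR 2.7.8a and Trim Galore 0.6.6, with no role stated. Build and annotation were not stated. The 76183 transcript values were summed per gene symbol and rounded. The 24 symbols that had become dates were separated by accession. Among list symbols, 6 were matched through accessions and 1 was not matched. Libraries were scaled with edgeR 4.0.16 under R 4.3.3, with factors of 1.05 for the non-lean and 0.952 for the lean library. Log2 ratios used a prior count of 0.5 in each library, and intervals were computed with scipy 1.17.1 in Python 3.11.15. The intervals cover counting error only. PCR copies cannot be recognised without molecular identifiers, so the intervals make no allowance for them. The calculation was tested on simulated data. The alternatives were 3 other scalings (total counts, DESeq2 1.42.0 size factors, upper quartile), a prior count of 2, no filter, a mean of at least 5 CPM, and the leading transcript model alone. The genes and lists were chosen with earlier results of these data known. Named are the 10 junction genes, ACHE, AGRN, MYOG, NCAM1, ERBB3 and UTRN, the 2 highest and 2 lowest tested genes of every other list and the 2 most abundant of marker lists.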

Additional observations from a re-analysis of the deposited data

How the results depend on the processing

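Each group has 1 library, so no library could be left out. No paired analysis was possible because each group has 1 library. CHRNA1 was called higher under every scaling and prior count tried, with log2 ratios between 2.32 and 2.49. The filters leave a gene's ratio as it is, and CHRNA1 has a single transcript model. Those settings could therefore not change its value. With total counts, which shift the median of tested genes by 0.14 and bring the share of higher calls among all calls to 56.0%, beside 40.7%, CHRNB1 was at 0.18 and RAPSN at -0.25. DESeq2 size factors, upper quartile scaling and a prior count of 2 moved no junction gene outside its counting interval.

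With the leading transcript model alone, CHRNB1 was at 0.67, CHRND at 1.20, MUSK at 5.68 and LRP4 at -2.49. The calls among junction genes were then 2 higher (CHRNA1 and CHRND) and 1 lower (LRP4), with 5 intervals above 0, and MUSK was below the level for testing. By construction this choice drops the counts of the other models, whose division differed between the libraries. The shares within the 5 receptor subunits became 24.8% in the non-lean and 9.54% in the lean library for CHRNA1, 62.5% and 77.1% for CHRNB1, 2.14% and 2.92% for CHRNE, 5.51% and 6.06% for CHRNG, and 4.38% in the lean library for CHRND. The list medians relative to tested genes became -0.42 for junction partners, 0.092 for endothelial and -0.40 for muscle fibre markers.

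Among all tested genes, those called higher numbered 1082 without a filter, 231 at a mean of at least 5 CPM and 1226 with the leading model, beside 673. Those called lower numbered 485 at a mean of at least 5 CPM and 1683 with the leading model, beside 982. At that mean, 6 of the 10 junction genes were left, and the median of macrophage markers was -1.89 relative to tested genes. Without a filter the medians of muscle fibre, slow and fast fibre markers were -0.35, 0.86 and -0.37 relative to a shifted median of all genes. Depth limits CHRNE and MUSK most, with 59 and 40 counts over both libraries.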

Other observations

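Nicotinic receptor subunits outside the muscle receptor were mostly near the limit of detection. Of 11 such genes, 2 were tested and 2 had no count in either library. CHRNA10 had 698 counts in the non-lean and 693 counts in the lean library, a log2 ratio of 0.20 [0.04, 0.35]. CHRNA7, known from neurons, had 50 counts in the non-lean and 47 in the lean library, and its ratio of 0.27 [-0.33, 0.88] held 0.

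Transcripts of the motor nerve terminal were likewise sparse. The cell bodies of these neurons lie in the spinal cord. Of 16 genes, 4 were tested, and the 3 with no count in either library were CHAT and SLC18A3, which make and load acetylcholine, and STMN2. The list summed to 152 CPM in the non-lean and 131 CPM in the lean library, of which UCHL1, a ubiquitin hydrolase, held 119 and 102 CPM. VAMP1, a vesicle protein, had 109 counts in the non-lean and 69 in the lean library, with a ratio of 0.84 and an interval above 0, and STX1A, a syntaxin, was at 0.68 [0.13, 1.25]. UCHL1 was at 0.22 [0.12, 0.33], and SYT2, a synaptotagmin, at -0.15 [-0.40, 0.10], held 0.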
